A study of Mus musculus with 18 samples.

Results

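The lungs described here carried a conditional deletion of Tfam, the gene of mitochondrial transcription factor A, in the epithelium, and they were set against control lungs of the same line. Members were taken by line and genotype, with no measured value in the rule: 3 Tfam-deficient samples (Tfamf/f; ShhCre/+) and 3 control samples (Tfamf/+; ShhCre/+), which make 6 of the 18 samples of the series. All were mouse embryonic lungs at 14.5 dpc (days post coitus), measured by RNA sequencing of whole lung tissue. The other 12 samples came from lines with floxed Cox10, which encodes an assembly factor of respiratory complex IV, or floxed Rptor, which encodes a subunit of the growth kinase complex mTORC1. Cre was made from the Shh locus, which is active in the epithelium of the lung. Both groups of the Tfam line carried this allele, so both had 1 Shh copy replaced by Cre, and the controls had 1 floxed Tfam allele as well. The deletion was therefore confined to the cells that express Shh or descend from them, while the RNA came from every cell of the lung, and a lower value in whole lung cannot tell fewer epithelial cells from less RNA per cell. The comparison asked how gene expression in the branching lung differed once the epithelium had lost a factor needed for the expression of mitochondrial DNA.

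TFAM coats mitochondrial DNA and starts its transcription, and without it a cell runs short of the respiratory chain subunits that this DNA encodes. Cells with failing mitochondria are known to activate the integrated stress response, in which phosphorylation of the initiation factor eIF2 lowers bulk protein synthesis and favours translation of the transcription factor ATF4. ATF4 is mostly controlled at translation, and its known targets serve amino acid uptake, serine and one-carbon metabolism and the charging of transfer RNAs. In the embryonic lung, the epithelium branches from SOX9-marked distal tips while SOX2-marked proximal airways form behind them, and Hedgehog, FGF and BMP signals pass between the epithelium and the mesenchyme.

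Each sample of the Tfam line held between 27727202 and 28146575 normalised reads over 23420 genes. Values are read counts divided by a size factor for each sample, so that 1 read is worth close to 1 unit. Correlations of log2 values between samples of a group lay between 0.992 and 0.994. Each label stands for a separate sample, and the litter and sex of each are not given. The Xist level, which is high in female cells, was 43497, 5265 and 21675 in the 3 controls and 10224, 38641 and 40316 in the 3 deficient samples, and 4 Y-linked genes together gave 65.0, 3770 and 1817 against 3806, 271 and 264. Sexes therefore differed among samples of each group, several samples held reads of both kinds, and the ranges of the groups overlapped. The markers Nkx2-1 (6018 to 6147 in controls and 4814 to 5480 in deficient lungs) and Sftpc (5619 to 7210 and 3066 to 5272) showed that the tissue was lung in all 6 samples.

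A total of 15053 genes passed the filter, set at a value of 10 or more in 3 or more samples, and 702 of them (4.66%) differed between Tfam-deficient and control lungs at an adjusted p below 0.05 (limma on log2(value + 1), two-sided, Benjamini-Hochberg). Of these, 306 (2.03% of the genes tested) were higher in Tfam-deficient lungs and 396 (2.63%) were lower. The number depended on control 3: it was 1114 without that sample, 354 without deficient 3, 357 without control 1 and between 418 and 492 without the other samples. With all 18 samples of the series in 1 fit, which shares the spread among the lines, it was 408. Of the 702 genes, 21 passed the filter through 1 group alone, so that they had to differ. Most of the differences were small. The median absolute log2 fold change of the 702 genes was 0.53, and 122 reached an absolute value of 1, with 45 higher and 77 lower. The 3 deficient values lay wholly above the 3 control values for 10.9% of all genes tested and wholly below them for 11.8%, which is the background against which the non-overlap of single genes should be read. An unadjusted p was below 0.05 for 17.4% of all genes tested (8.29% higher and 9.1% lower), and counts of list members at that level should be read against these shares. Counts of list members called at the adjusted threshold should be read against the 2.03% called higher and the 2.63% called lower. The median log2 fold change over all genes tested was 0.00. Because fold changes are on the log2(value + 1) scale, they understate the change of genes with low values.

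**Figure D1:**
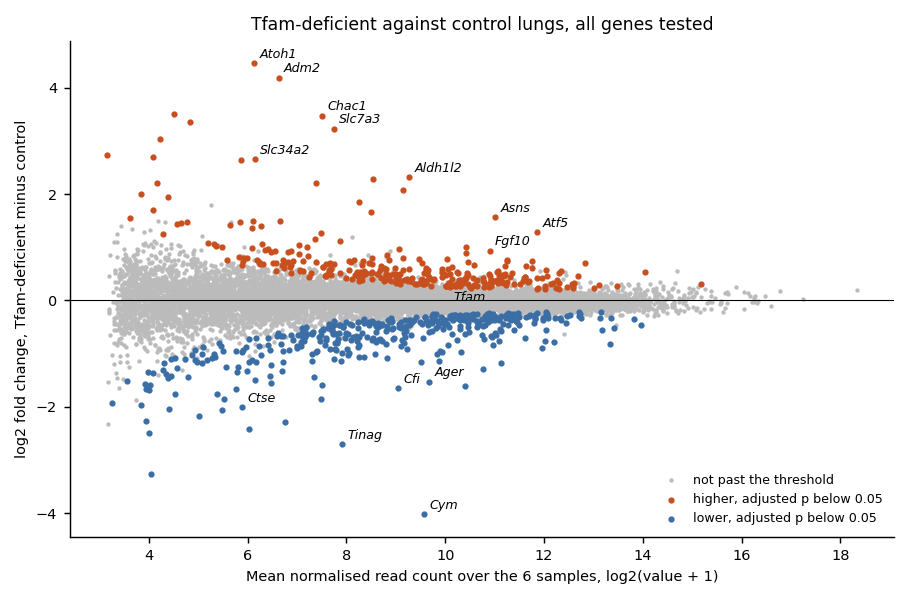
Each point is 1 of the 15053 genes tested, with its mean normalised read count over the 6 samples on the log2(value + 1) scale on the x axis and its log2 fold change, Tfam-deficient minus control, on the y axis. The 306 higher and 396 lower genes at an adjusted p below 0.05 are coloured, and the named genes at the top (Atoh1, Adm2, Chac1, Slc7a3) and at the bottom (Cym, Tinag) stand apart from the cloud.

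Tfam itself (chr10:71225464-71238280 on the minus strand, mm10) had values of 1057, 1063 and 1185 in controls and of 940, 994 and 1107 in deficient lungs. The groups overlapped, and the log2 fold change of -0.12 (SE 0.08) did not pass the test (limma adjusted p = 0.472). This level does not check the genotype labels, since the count covers the whole gene and all cells of the lung, and control lungs had 1 floxed allele. Of the mitochondrially encoded genes, 0 were found under the symbols searched, so their expression was not analysed here.

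Few nuclear genes of mitochondria passed the test in the Tfam line. Over 9 lists of such genes, 262 were tested, and 1 was called higher and 0 lower, with a median log2 fold change of 0.02. At an unadjusted p below 0.05 there were 22 (8.4%, under the 17.4% of all genes), of which 16 were higher and 6 lower. Without control 3 these lists gave 20 calls higher and 2 lower, and without any other sample at most 1. Of the 46 genes that maintain, copy or transcribe mitochondrial DNA, limma called 0, with 4 at an unadjusted p below 0.05 (8.7%, against 17.4% of all genes), all higher. Their log2 fold changes ran from -0.18 to 0.37. Polrmt, the mitochondrial RNA polymerase, had control values of 1431, 1412 and 1418 and deficient values of 1480, 1442 and 1249, a log2 difference of -0.03 (SE 0.07). Lrpprc, which stabilises mitochondrial messenger RNAs, measured 2164, 2042 and 2428 against 2337, 2367 and 2702, a log2 difference of 0.16 (SE 0.08, limma adjusted p = 0.335). Both genes overlapped between the groups.

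Among the 35 genes of complex I, the 14 of complexes II and III, the 16 of ATP synthase and the 76 of the mitochondrial ribosome, limma again called 0. At an unadjusted p below 0.05 these lists held 4, 1, 0 and 4 genes, each a smaller share than the 17.4% of all genes, and complex IV held 3 of 16 (18.8%). The exception in complex IV was Cox4i2, an alternative subunit known to be raised by low oxygen, with control values of 448, 434 and 468 and deficient values of 544, 623 and 657. All 3 deficient values lay above the controls (log2 fold change 0.43, SE 0.09, limma adjusted p = 0.0184). The call held without control 3 and without deficient 1, and was lost without each of the other samples (limma adjusted p up to 0.0932) and in the fit of all 18 samples. Genes of the mitochondrial protein quality control system, which belong to the mitochondrial unfolded protein response, gave 0 calls of 23 with 3 at an unadjusted p below 0.05, and the chaperone Hspd1 and the protease Lonp1 had log2 differences of 0.13 (SE 0.09) and -0.02 (SE 0.06). The 17 mitochondrial tRNA synthetases gave 0 calls with 3 (17.6%) at an unadjusted p below 0.05. The 19 enzymes of the tricarboxylic acid cycle gave 0 calls with 0 at that level.

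Genes of the integrated stress response held many of the largest rises in the Tfam line. Of 25 regulators and known targets tested, 8 rose and 0 fell, a share of 32.0% called against 4.66% of all genes. The median of the list was 0.19. Chac1, which degrades glutathione and is a known target of the pathway, had values of 29.5, 29.3 and 28 in controls and of 341, 347 and 307 in deficient lungs, or 3.47 on the log2 scale (SE 0.13, limma adjusted p = 3.3e-07). Trib3, a pseudokinase that feeds back on ATF4, rose from 65.0, 47.5 and 62.0 to 294, 223 and 297 (log2 fold change 2.20, SE 0.16). Stc2, a secreted glycoprotein, rose from 129, 132 and 131 to 492, 436 and 497 (1.85, SE 0.10). In each of these genes the deficient values were several times the control values and the spread within a group was small beside the gap. Atf5, a transcription factor that is itself controlled through eIF2, rose from 1949, 2388 and 2207 to 5367, 5602 and 4882 (1.28, SE 0.08, limma adjusted p = 8.9e-06). Sesn2, an inhibitor of mTORC1, rose by 0.78 on the log2 scale, Atf3 by 0.56, Eif4ebp1 (a repressor of cap-dependent translation) by 0.50 and Vldlr by 0.27.

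The factor at the centre of the pathway did not pass the test at the level of its RNA. Atf4 had values of 5393, 5259 and 5471 in controls and of 6365, 6149 and 5879 in deficient lungs. The groups did not overlap, but the log2 fold change of 0.19 (SE 0.05) missed the threshold (limma adjusted p = 0.086). Ddit3, the factor CHOP that is known for driving cell death under prolonged stress, measured 173, 159 and 228 against 242, 230 and 228. Its groups overlapped by a narrow margin, with a log2 difference of 0.34 (SE 0.14, limma adjusted p = 0.22). Without control 3, which holds its highest control value, Ddit3 passed (limma adjusted p = 0.0292). None of the kinases that phosphorylate eIF2 passed the test, with log2 differences of 0.22 (SE 0.07, limma adjusted p = 0.133) for Eif2ak2, whose deficient values lay above all controls, -0.14 (SE 0.07) for Eif2ak1, -0.03 (SE 0.07) for Eif2ak3 and 0.03 (SE 0.06) for Eif2ak4. The mitochondrial protease Oma1 had -0.03 (SE 0.07).

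Of the secreted signals linked with mitochondrial stress, 5 of 7 passed the filter, and Adm2 rose. Adm2, a peptide of the adrenomedullin family, had values of 12.2, 9.1 and 7 in controls and of 196, 193 and 170 in deficient lungs (log2 fold change 4.19, SE 0.22, limma adjusted p = 1.5e-06). Gdf15, a cytokine that lowers appetite, went from 2.03, 5.05 and 2 to 43.7, 16.9 and 37.1 (3.04, SE 0.45). All its control values were under the filter's minimum, so it passed through the deficient lungs alone, had to differ and is not counted here, and without any 1 of them it no longer passed. Fgf21, the other hormone of this kind, did not reach the filter, with 0, 1.01 and 1.00 reads in controls and 2.98, 5.96 and 1.96 in deficient lungs.

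**Figure D2:**
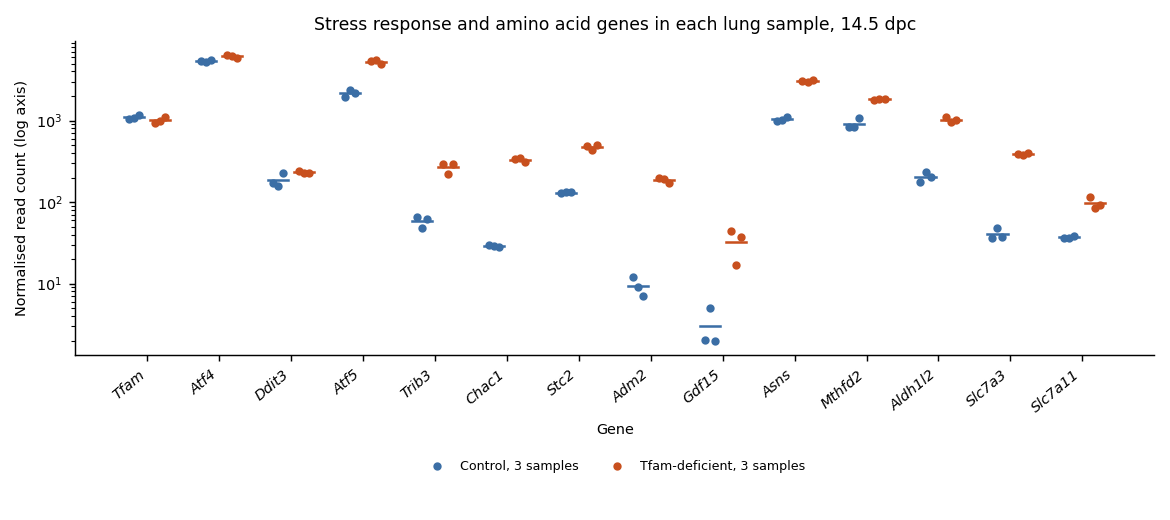
Normalised read counts (log y axis) of Tfam and 13 genes of the stress response and of amino acid metabolism (x axis) in the 3 control and the 3 Tfam-deficient lung samples, with each point a sample and each bar the mean of its group. Tfam and Ddit3 overlap between the groups, Atf4 is apart by a small step, and Adm2 and Chac1 are apart by the widest gaps.

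Promoters bear on these genes, since ATF4 binds DNA as a partner of C/EBP factors at a composite element whose letters are TGATGNAA. Promoter sequences were available from RefSeq (GRCm38.p6) as windows of 250 bases before to 50 bases after each gene's start, for 11844 of the 15053 genes tested, and were searched for this element on both strands. The element occurred in 2.77% of the genes tested and in 3.97% of all 32851 promoter windows. It occurred in 10.2% of the promoters of genes called higher (23 of 225) and in 2.44% of those called lower (7 of 287). Among the stress regulators, amino acid enzymes, amino acid transporters and cytosolic tRNA synthetases, 11 of the 24 called higher with a promoter held it (45.8%), against 7 of 55 not called (12.7%). A match is a description of the letters and does not show that a factor binds there. The promoters of 5 called genes with different roles in the pathway are shown, with the element, or its reverse complement, in capitals:
Chac1 (chr2:119350992-119351291, plus strand): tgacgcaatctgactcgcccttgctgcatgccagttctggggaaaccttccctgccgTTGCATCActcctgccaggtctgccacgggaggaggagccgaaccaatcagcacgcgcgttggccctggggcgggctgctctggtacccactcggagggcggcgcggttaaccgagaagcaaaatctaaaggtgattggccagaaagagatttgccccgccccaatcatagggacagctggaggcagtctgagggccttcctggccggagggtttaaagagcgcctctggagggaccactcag
Trib3 (chr2:152344011-152344310, minus strand): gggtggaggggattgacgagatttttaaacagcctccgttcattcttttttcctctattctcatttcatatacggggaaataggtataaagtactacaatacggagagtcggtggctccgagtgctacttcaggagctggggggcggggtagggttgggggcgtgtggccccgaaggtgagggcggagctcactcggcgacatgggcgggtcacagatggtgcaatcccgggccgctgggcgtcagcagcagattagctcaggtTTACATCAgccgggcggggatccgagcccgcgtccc
Asns (chr6:7693160-7693459, minus strand): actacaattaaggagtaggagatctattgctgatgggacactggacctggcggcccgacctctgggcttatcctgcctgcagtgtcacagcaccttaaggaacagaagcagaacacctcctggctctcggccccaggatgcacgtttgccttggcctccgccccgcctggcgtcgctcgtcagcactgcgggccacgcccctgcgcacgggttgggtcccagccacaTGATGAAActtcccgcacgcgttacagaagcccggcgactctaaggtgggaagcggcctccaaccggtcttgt
Slc7a11 (chr3:50443564-50443863, minus strand): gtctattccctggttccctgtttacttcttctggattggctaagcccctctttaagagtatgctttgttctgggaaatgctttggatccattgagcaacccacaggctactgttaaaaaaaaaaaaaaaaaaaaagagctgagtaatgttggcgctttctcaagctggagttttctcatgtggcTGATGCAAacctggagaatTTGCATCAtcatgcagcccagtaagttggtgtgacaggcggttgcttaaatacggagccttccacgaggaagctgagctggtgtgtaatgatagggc
Gars (chr6:55037751-55038050, plus strand): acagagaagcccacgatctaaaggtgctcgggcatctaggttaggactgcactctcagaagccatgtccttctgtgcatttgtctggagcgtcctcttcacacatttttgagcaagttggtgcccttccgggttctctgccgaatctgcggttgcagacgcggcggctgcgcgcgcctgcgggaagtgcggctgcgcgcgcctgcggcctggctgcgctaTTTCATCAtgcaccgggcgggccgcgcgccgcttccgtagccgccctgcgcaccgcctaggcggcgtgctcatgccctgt
The element began 193 bases before the start in Chac1, 23 before it in Asns and 30 before it in Gars, and 14 after it in Trib3. Slc7a11 held 2 copies, at 66 and 47 bases before the start and on opposite strands. It was also found for Atf3, Vldlr, Pycr1, Pck2, Iars and Yars. These letters did not occur in the windows of the other 13 called genes with a promoter, Atf5, Stc2, Sesn2, Phgdh, Psat1, Shmt2, Mthfd2, Gpt2, Aldh18a1, Slc7a1, Slc3a2, Slc6a9 and Sars, nor in those of Adm2 and Gdf15. Of 18 serine and one-carbon genes with a promoter, 0 held the element.

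The enzymes of serine and one-carbon metabolism followed, with 7 of 22 higher and 1 lower (36.4% called). Aldh1l2, which oxidises formyl-folate inside mitochondria, had control values of 178, 235 and 203 and deficient values of 1102, 956 and 1018 (log2 fold change 2.32, SE 0.11, limma adjusted p = 8.6e-07). Mthfd2, the mitochondrial enzyme that makes formyl-folate, rose from 836, 823 and 1069 to 1762, 1818 and 1860 (1.01, SE 0.09). Cth, which makes cysteine from cystathionine, rose from 106, 97.0 and 109 to 262, 232 and 265 (1.28, SE 0.11). In these 3 enzymes every deficient value lay above every control. The serine synthesis enzymes Phgdh (log2 fold change 0.28, SE 0.06) and Psat1 (0.24, SE 0.06) and the serine hydroxymethyltransferase Shmt2 (0.33, SE 0.07) rose by less, from higher levels. The member that fell was Tyms, thymidylate synthase of the S phase, from 3539, 3410 and 3699 to 2821, 2888 and 2860 (-0.31, SE 0.05, limma adjusted p = 0.00781). The number of enzymes called higher was 8 without control 3, between 3 and 4 without any other sample, and the call of Phgdh held without control 3 or deficient 1 alone.

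Of 16 enzymes of asparagine, proline and glutamate metabolism, 5 rose and 0 fell, where 2.03% of all genes tested were called higher. Asns, asparagine synthetase, had values of 993, 1027 and 1092 in controls and of 3089, 2984 and 3150 in deficient lungs (log2 fold change 1.57, SE 0.06, limma adjusted p = 3.3e-07). The alanine transaminase Gpt2 rose by 0.60 (SE 0.07) and the mitochondrial phosphoenolpyruvate carboxykinase Pck2 by 0.41 (SE 0.05). The proline enzymes Pycr1 and Aldh18a1 rose by 0.39 (SE 0.07) and 0.23 (SE 0.05). The number called was 3 without control 1 or without deficient 1 and between 4 and 5 without any other sample.

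Of 22 amino acid transporters, 6 rose and 0 fell, where 2.03% of all genes tested were called higher. Slc7a3, which carries arginine and lysine, had control values of 36.6, 48.5 and 37.0 and deficient values of 384, 377 and 399 (log2 fold change 3.23, SE 0.14, limma adjusted p = 5.8e-07). Slc7a11, which exchanges cystine for glutamate, rose from 36.6, 36.4 and 38.0 to 116, 84.4 and 91.9 (1.36, SE 0.17). Slc7a5 and its partner chain Slc3a2, which together carry large neutral amino acids, rose by 0.74 (SE 0.07) and 0.43 (SE 0.07). Slc7a1, which also carries arginine, rose by 0.52 (SE 0.06) and the glycine carrier Slc6a9 by 0.57 (SE 0.08). In all 6 the deficient values lay above every control value. The remaining 16 did not pass the test, and the median of the list was 0.06.

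Of 20 cytosolic tRNA synthetases, which charge transfer RNAs with amino acids, 4 rose and 0 fell, where 2.03% of all genes were called higher. The 4 were Sars (log2 fold change 0.35, SE 0.07), Yars (0.34, SE 0.08), Gars (0.23, SE 0.05) and Iars (0.21, SE 0.05). These were small steps, with limma adjusted p between 0.0218 and 0.0473, and the calls rested on which samples entered, with 7 called without control 3 and 0 without any other sample. Over these 6 lists of stress and amino acid genes together, 32 of 110 genes were called higher and 1 fell, or 31 of 109 higher without Gdf15, and with Gdf15 counted where it was tested 38 were called higher without control 3 and between 20 and 24 without any other sample. In the fit of all 18 samples 29 were called higher and 1 lower.

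Lists of other stress programmes gave fewer calls. Of 20 chaperones and folding enzymes of the endoplasmic reticulum, limma called 0, with 7 at an unadjusted p below 0.05 (1 higher and 6 lower, where 8.29% and 9.1% of all genes were) and a median of -0.12. Of 20 targets of p53, with a median of 0.13, unadjusted p-values were below 0.05 for 8, all of them higher, and in 8 every deficient value lay above the controls, where 10.9% of all genes did so. Ccng1 alone was called, from 1919, 2015 and 1909 to 2756, 2283 and 2521 (log2 fold change 0.37, SE 0.07, limma adjusted p = 0.0145), and it lost the call without control 1, deficient 1 or deficient 3 (limma adjusted p from 0.0595 to 0.0731) and in the fit of all 18 samples. The cell cycle inhibitor Cdkn1a measured 209, 219 and 224 against 339, 237 and 289, apart between the groups but short of the threshold (limma adjusted p = 0.129, and 0.0469 without deficient 2). Of 20 antioxidant genes, 2 rose, and both of them, Chac1 and Slc7a11, are described above. Of 22 interferon response genes, 2 rose and 0 fell, with a median of 0.30. At an unadjusted p below 0.05, 9 were higher and 1 lower, where 8.29% and 9.1% of all genes were. In 8 every deficient value lay above the controls, where 10.9% of all genes did so. The number called was 0 with no filter on low values, 3 in the fit of all 18 samples, 3 without control 3, 1 without deficient 3 and 0 without any other sample. Xaf1, which promotes cell death, went from 31.5, 24.3 and 25 to 140, 72.5 and 44.0 (log2 fold change 1.48, SE 0.34, limma adjusted p = 0.034), with a wide spread among the deficient lungs, and the call held without deficient 3 (limma adjusted p = 0.0089) but not without any other sample. Isg15 did not reach the filter, with at most 13.9 reads in any sample.

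Of 23 glycolysis genes, 3 rose and 0 fell, where 2.03% of all genes tested were called higher. The members ranged from -0.57 to 0.59, and at an unadjusted p below 0.05, 5 were higher and 1 lower. The called genes were the glucose transporters Slc2a3 and Slc2a1 and the hexokinase Hk2. Slc2a3 rose from 545, 475 and 460 to 717, 726 and 789 (log2 fold change 0.59, SE 0.08, limma adjusted p = 0.00236) and Slc2a1 from 2915, 2966 and 2777 to 3643, 3725 and 3749 (0.36, SE 0.05). Hk2 rose by 0.29 (SE 0.07). In the fit of all 18 samples 0 of the 23 were called. The lactate dehydrogenase Ldha measured 19633, 18116 and 20701 against 18913, 20015 and 22166, with overlapping groups (0.06, SE 0.08). Of 18 genes of the hypoxia response, 2 rose, Slc2a1 again and Ndufa4l2 (0.40, SE 0.08, limma adjusted p = 0.0214), a mitochondrial protein known to be raised by hypoxia-inducible factor. The call of Ndufa4l2 was lost without control 1, deficient 2 or deficient 3 (limma adjusted p up to 0.106). Without 1 sample, 1 to 3 of the hypoxia genes were called, with 1 without control 1, deficient 2 or deficient 3, and in the fit of all 18 samples 0 were called.

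Of 23 genes of sterol synthesis tested, 9 fell and 0 rose, a share of 39.1% called, and in 18 of the 23 the 3 deficient values lay below all 3 controls, against 11.8% of all genes. The steps were small, with a median of -0.27. Sqle, the squalene epoxidase, fell from 2733, 2587 and 2761 to 2115, 2158 and 2157 (log2 fold change -0.33, SE 0.05, limma adjusted p = 0.00563). Cyp51, which removes a methyl group from lanosterol, measured 2791, 2866 and 2864 against 2223, 2352 and 2279 (-0.31, SE 0.05). Both genes were lower in every deficient lung. Hsd17b7, an enzyme of a late step, fell to a like degree (-0.37, SE 0.09), and its call held without control 3 or deficient 1 alone. The number of these genes called lower was 11 without control 3 and between 4 and 6 without any other sample. In the fit of all 18 samples 0 were called, with the median still at -0.27.

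Proliferation genes gave 1 call of 22, the replication helicase subunit Mcm3, from 7136, 7273 and 7117 to 6066, 6265 and 6304 (log2 fold change -0.21, SE 0.05, limma adjusted p = 0.0463). The call was lost without each sample other than control 3. In all, 11 of the 22 were lower at an unadjusted p below 0.05, against 9.1% of all genes, and the median was -0.13. Of 61 genes of the cytosolic ribosome, limma called 0, with 10 at an unadjusted p below 0.05 (16.4%, close to the 17.4% of all genes), all higher. Their values leaned upward, with 56 of 61 above 0 and a median of 0.18, and 28 were called higher without control 3 against 0 without any other sample. Ribosomal protein genes have many processed copies in the genome, and how reads shared with them were counted is not given in the sources used here.

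**Figure D3:**
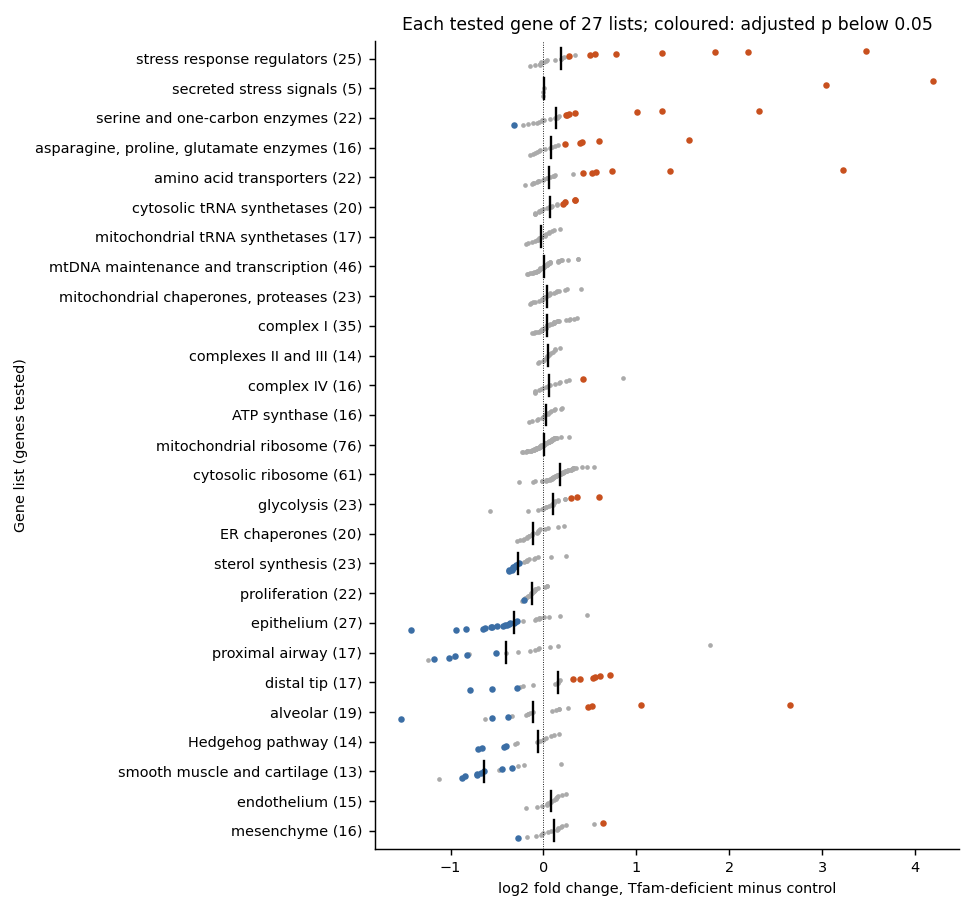
Each point is the log2 fold change, Tfam-deficient minus control, of 1 tested gene in 27 gene lists, with the number of genes tested in brackets. Orange points were higher and blue points lower at an adjusted p below 0.05, grey points did not pass, and black bars mark the median of a list. The stress and amino acid lists carry the orange points furthest to the right, the mitochondrial lists are nearly all grey around 0, and the epithelium, airway, sterol and smooth muscle lists carry most of the blue points.

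The largest rises of the Tfam line outside the stress lists were in genes of varied roles. Atoh1, a transcription factor of sensory and secretory cells, had 2.03, 7.07 and 8 in controls and 116, 138 and 144 in deficient lungs (log2 fold change 4.46, SE 0.37). It passed the filter through the deficient lungs alone, so it had to differ and is given without a test, and without any 1 deficient sample it no longer passed. Npy2r, a receptor of neuropeptide Y, rose from 12.2, 17.2 and 16 to 83.4, 112 and 102 (2.64, SE 0.21). In the Cox10 and Rptor lines Atoh1 had log2 fold changes of 4.10 and 6.65, and Npy2r had 1.33 and -0.04. Slc34a2, the phosphate carrier of alveolar type 2 cells, rose from 16.3, 12.1 and 21.0 to 49.6, 128 and 190 (2.66, SE 0.41, limma adjusted p = 0.00364), with a wide spread among the deficient lungs and no call in the fit of all 18 samples (limma adjusted p = 0.0756). Nppa, the natriuretic peptide made by heart muscle, rose from 78.2, 179 and 136 to 669, 607 and 557 (2.29, SE 0.23, limma adjusted p = 0.000273). In the fit of all 18 samples this was not called (limma adjusted p = 0.481). Heart muscle genes other than Nppa overlapped between the groups: Myh6 measured 1464, 3757 and 2567 in controls and 7610, 2378 and 3021 in deficient lungs, and Myh7, Tnnt2 and Myl7 were likewise highest in the first deficient sample and overlapping. With Xist as a covariate, Myh6, Myh7, Tnnt2 and Myl7 were called higher too, with log2 fold changes from 0.74 to 0.97. Whether heart tissue in the samples plays a part in the Nppa result was not tested.

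The largest falls were also in genes of varied roles. Cym, which encodes the protease chymosin, fell from 1601, 1287 and 1421 to 67.5, 84.4 and 117 (log2 fold change -4.02, SE 0.17, limma adjusted p = 5.8e-07). Tinag, a basement membrane protein, fell from 438, 375 and 436 to 72.5, 64.5 and 52.8 (-2.71, SE 0.14). Crh, corticotropin-releasing hormone, fell from 108, 92.0 and 128 to 19.9, 17.9 and 20.5 (-2.42, SE 0.19). In these genes every deficient lung lay far below the lowest control. Cpn1, a subunit of the plasma carboxypeptidase N, fell from 172, 195 and 169 to 47.6, 31.8 and 30.3 (-2.28, SE 0.19) and Ctse, the aspartic protease cathepsin E, from 96.5, 98.0 and 88.0 to 22.8, 25.8 and 19.6 (-2.01, SE 0.18). The non-coding RNA Gm19990 fell by 1.86, Pkhd1, which encodes fibrocystin of the primary cilium, by 1.66 on the log2 scale. The complement regulator Cfi fell from 769, 823 and 803 to 273, 235 and 256 (-1.65, SE 0.08). All 8 falls were called in each of the 6 fits without 1 sample. They were not all particular to this line. Cym had log2 fold changes of -3.53 in the Cox10 line and -4.04 in the Rptor line, while Ctse had -0.06 and -0.59.

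Epithelial genes were lower in the Tfam line. Of 27 epithelial markers, 16 fell and 0 rose, or 59.3% called against 2.63% lower over all genes, with a median of -0.32. Foxa1, a pioneer factor of the endoderm, had values of 2467, 2791 and 2426 in controls and of 1625, 1643 and 1611 in deficient lungs (log2 fold change -0.65, SE 0.07, limma adjusted p = 0.000235). The adhesion protein E-cadherin, encoded by Cdh1, fell from 5188, 5182 and 4693 to 3347, 3419 and 3513 (-0.55, SE 0.06), and the splicing regulator Esrp2 from 1373, 1421 and 1300 to 841, 901 and 895 (-0.63, SE 0.06). The controls were higher in every sample for each of these genes. Prom2, a protein of membrane protrusions, fell furthest, from 152, 111 and 118 to 39.7, 44.7 and 55.7 (-1.43, SE 0.18, limma adjusted p = 0.00112). Not all epithelial genes shared this: Epcam, the pan-epithelial adhesion molecule, measured 3125, 3027 and 3844 against 3001, 2958 and 3710, with overlapping groups (-0.05, SE 0.10, limma adjusted p = 0.862). Nkx2-1, the lung-defining factor, was lower in each deficient lung but missed the threshold (-0.22, SE 0.06, limma adjusted p = 0.0803). The members ranged from -1.43 to 0.46, and the number called lower was between 12 and 16 without 1 sample and 10 in the fit of all 18 samples.

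Of 17 proximal airway genes measured above the filter, 5 fell and 0 rose, with a median of -0.41. The members ranged from -1.24 to 1.80, and 3 of them were above 0. At an unadjusted p below 0.05, 7 were lower and 1 was higher. Without 1 sample the number called was between 2 (without control 2) and 4, with 3 without control 1, control 3 or deficient 2. It was 3 with no filter on low values and 1 in the fit of all 18 samples. Aldh1a7, an aldehyde dehydrogenase of the airway, fell from 3223, 2836 and 3243 to 1337, 1479 and 1300 (log2 fold change -1.18, SE 0.07, limma adjusted p = 8.6e-06). It is a close copy of Aldh1a1, which also fell (-0.81, SE 0.10), and reads that the copies share make the split between them uncertain. Scgb3a2, the secretoglobin of early club cells, fell from 195, 196 and 281 to 125, 104 and 113 (-0.95, SE 0.16). Sox2, the factor that marks the proximal airway, fell from 510, 608 and 606 to 453, 361 and 396 (-0.51, SE 0.10, limma adjusted p = 0.0189), and this call was lost without control 2, deficient 2 or deficient 3 (limma adjusted p from 0.063 to 0.0791) and in the fit of all 18 samples (limma adjusted p = 0.414). Sox2 lies within a longer non-coding transcript, and whether its reads were kept apart from that transcript is not given. The multiciliation regulators Mcin (also called Mcidas) and Ccno fell by 1.02 and 0.82 on the log2 scale from low levels, with at most 40.4 reads for Mcin in any sample. Of 8 neuroendocrine genes measured, 2 fell, the ubiquitin hydrolase Uchl1 (-0.52, SE 0.11) and the synaptic protein Cplx2 (-0.34, SE 0.08). Members went both ways, with log2 fold changes from -0.52 to 0.89 and 3 of the 8 above 0. At an unadjusted p below 0.05, 3 were lower and 1 was higher. The calls of Uchl1 and Cplx2 held without control 3 or deficient 1 and were lost without any other sample. In the fit of all 18 samples 1 of the list was called.

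Genes of the distal tip changed in both directions, with 6 of 17 higher and 3 lower, where 2.03% and 2.63% of all genes tested were. Etv4, a transcription factor activated by FGF signals, had values of 1078, 1131 and 1001 in controls and of 1829, 1786 and 1650 in deficient lungs (log2 fold change 0.71, SE 0.07, limma adjusted p = 0.000192). Its relative Etv5 went the other way, from 11812, 11590 and 9775 to 7098, 8262 and 7226 (-0.55, SE 0.08, limma adjusted p = 0.00358). The other members that rose were the ligand Bmp4, the inhibitor Id2 and the FGF feedback genes Spry2, Dusp6 and Spry1, with log2 fold changes from 0.32 to 0.61. The secreted chaperone Clu fell by 0.79 and the receptor Fgfr2 by 0.28. Sox9, the factor that marks the tip, measured 3362, 3625 and 2753 against 2823, 2732 and 2551, with overlapping groups (-0.26, SE 0.09, limma adjusted p = 0.169), and it passed the threshold without control 3 (limma adjusted p = 0.00771).

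Alveolar genes changed in both directions. Of 19 tested, 4 rose, and all 4 are known from type 2 cells: Slc34a2, the protease Napsa (from 80.3, 93.0 and 82.0 to 178, 163 and 190, log2 fold change 1.05, SE 0.13), the lamellar body protein Lamp3 (0.52, SE 0.12) and the lipid carrier Abca3 (0.48, SE 0.07). Among the 3 that fell was Ager, the receptor typical of type 1 cells, from 1129, 1272 and 1226 to 373, 431 and 455 (-1.53, SE 0.09, limma adjusted p = 4e-06). The others were Gprc5a (-0.38, SE 0.07) and Etv5, already described. In the fit of all 18 samples 0 of the list were called higher and 2 lower, so all 4 rises lost their call. Of the surfactant genes, Sftpc was lower in each deficient lung (-0.63, SE 0.16) without passing the test (limma adjusted p = 0.0562), and Sftpb overlapped between the groups (0.17, SE 0.09).

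**Figure D4:**
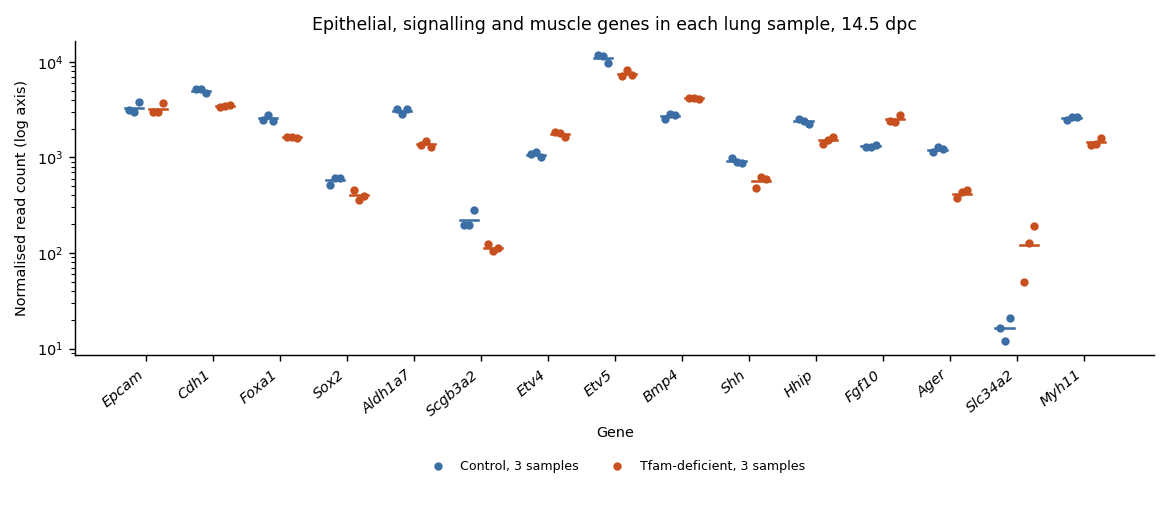
Normalised read counts (log y axis) of 15 epithelial, signalling and muscle genes (x axis) in the 3 control and 3 Tfam-deficient lung samples, with each point a sample and each bar the mean of its group. Epcam overlaps between the groups, Cdh1, Foxa1, Sox2, Aldh1a7, Shh, Hhip, Ager and Myh11 are lower in every deficient sample, and Etv4, Bmp4, Fgf10 and Slc34a2 are higher in every one.

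Signals between epithelium and mesenchyme differed in the Tfam line. Of 14 Hedgehog pathway genes, 4 fell and 0 rose, where 2.63% of all genes tested were called lower. The median of the list was -0.06, and 5 of the 14 were above 0. The ligand Shh had values of 980, 898 and 882 in controls and of 483, 624 and 599 in deficient lungs (log2 fold change -0.70, SE 0.10, limma adjusted p = 0.0022), on a background in which both groups carried Cre in 1 Shh allele. Known targets in the receiving cells were lower as well, with Hhip, a decoy of the ligand, at 2509, 2418 and 2245 against 1383, 1534 and 1620 (-0.66, SE 0.07) and the receptor Ptch1 at -0.42 (SE 0.10). Between 2 and 6 of the pathway genes were called lower without 1 sample, with 5 without control 3, 6 without deficient 2 and 2 without each of the others. The number was 2 with no filter on low values and 2 in the fit of all 18 samples. Of 22 genes of the FGF, BMP and WNT pathways, 3 rose and 1 fell. Fgf10, the mesenchymal ligand that draws out new buds, rose from 1291, 1289 and 1350 to 2385, 2369 and 2780 (0.93, SE 0.07, limma adjusted p = 3.8e-05). Bmp4 rose from 2541, 2838 and 2800 to 4152, 4240 and 4056 (0.61, SE 0.06) and the BMP target Id1 by 0.48 (SE 0.09). Wnt5a fell from 883, 873 and 798 to 681, 616 and 579 (-0.45, SE 0.08, limma adjusted p = 0.00957). The fall of Wnt5a was not called without control 1 or deficient 3 (limma adjusted p up to 0.0556) or in the fit of all 18 samples (limma adjusted p = 0.246). Without 1 sample 2 to 4 of the list were called higher and 0 to 2 lower.

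Smooth muscle and cartilage genes, which mark cells outside the epithelium, were also lower, with 8 of 13 called and a median of -0.64. Myh11, the heavy chain of smooth muscle myosin, fell from 2479, 2628 and 2645 to 1363, 1385 and 1583 (log2 fold change -0.84, SE 0.07, limma adjusted p = 6.3e-05), and Myocd, the master activator of smooth muscle genes, from 407, 418 and 344 to 230, 234 and 176 (-0.87, SE 0.13). The collagen of cartilage, Col2a1, fell from 1957, 2442 and 2191 to 1637, 1223 and 1175 (-0.72, SE 0.12). The number called lower was 5 without deficient 3, between 6 and 8 without any other sample and 3 in the fit of all 18 samples.

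Markers of the other cells in the lung gave few calls. Of 16 mesenchymal genes, the matrix protein Lum rose (log2 fold change 0.64, SE 0.11) and Tgfbi fell (-0.27, SE 0.05). The call of Tgfbi held without control 2 or control 3 alone (limma adjusted p up to 0.0856 in the other fits). Limma called 0 of 15 endothelial, 0 of 8 mesothelial and 0 of 14 blood genes, with 4, 3 and 6 at an unadjusted p below 0.05, all of them higher, where 8.29% of all genes were. With Xist as a covariate these lists gave 1, 3 and 1 calls, all higher. Of 10 nerve genes, the receptor Ret fell, from 256, 290 and 264 to 95.3, 74.4 and 98.7 (-1.59, SE 0.13, limma adjusted p = 6.8e-05). Of 10 genes of heart and other neighbouring tissues, Nppa alone was called, and 5 were called higher with Xist as a covariate.

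Few genes differed in effect between the Tfam line and the Cox10 line, in which the epithelium lacks a factor of complex IV. The difference between the effects of the lines was tested in 1 fit of all 18 samples, over 14550 genes. It passed the threshold for 8 genes (0.055%), and 6 of the 8 were members of the stress and amino acid lists, which held 108 of the genes tested: Atf5, Asns, Slc7a3, Mthfd2, Aldh1l2 and Slc7a1. Each rose more in the Tfam line. Atf5 rose by 1.28 on the log2 scale in the Tfam line, against 0.18 (SE 0.11) in the Cox10 line, a difference of 1.10 (SE 0.14, limma adjusted p = 0.00489). Slc7a3 differed by 1.66 (SE 0.25), Aldh1l2 by 1.38 (SE 0.21), Asns by 0.97 (SE 0.14), Mthfd2 by 0.91 (SE 0.14) and Slc7a1 by 0.45 (SE 0.07). Slc7a3 and Chac1 were also higher in Cox10-deficient lungs in their values, with log2 fold changes of 1.57 (SE 0.22) and 1.87, and for Chac1 the difference of 1.60 between the lines did not pass (limma adjusted p = 0.24). The widest difference of the 8 was that of the gene model Gm6548, which is in none of the lists. It rose by 2.07 on the log2 scale with Tfam deficiency, while Cox10-deficient lungs gave -0.04 (difference 2.11, SE 0.29, limma adjusted p = 0.00725). Veph1 had a log2 fold change of -1.44 where the Cox10 line had -0.44. The number of such genes moved with the samples: it was 2 without deficient 3 of the Tfam line, 3 without its control 1 or without control 2 of the Cox10 line, 5 without its deficient 1 and between 6 and 10 without any other sample of these lines.

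Against the Rptor line the effects differed for 1626 genes (11.2%). Of 108 stress and amino acid genes tested in all 3 lines, 46 had a higher and 3 a lower effect in the Tfam line, with median log2 fold changes of 0.08 in the Tfam line, 0.01 in the Cox10 line and -0.16 in the Rptor line. Asns rose by 1.57 in the Tfam line and fell by 0.75 in the Rptor line, a difference of 2.32 (SE 0.14, limma adjusted p = 7.9e-08), and Mthfd2 rose by 1.01 and fell by 1.00, a difference of 2.00. Epithelial markers fell less in the Tfam line, with 19 of 27 showing an effect above that in the Rptor line and 0 below it, and medians of -0.32 and -1.07. For Sox2 the log2 fold change was -0.51 in the Tfam line and -3.09 in the Rptor line (difference 2.57, limma adjusted p = 0.000597). Fgf10 rose by 0.93 and 1.87 in these lines (difference -0.94, limma adjusted p = 0.00523). For Shh the difference from the Cox10 line was 0.00 and that from the Rptor line -0.47, and neither passed the test.

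**Figure D5:**
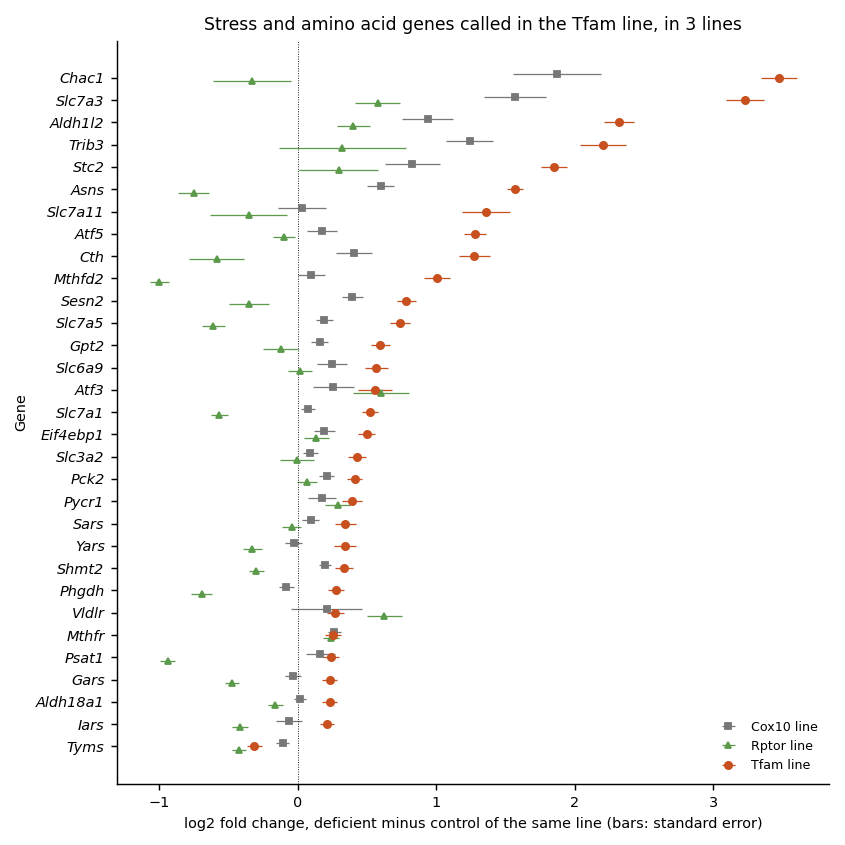
The 31 stress and amino acid genes that were called in the Tfam line and tested in all 3 lines (y axis), with their log2 fold change, deficient minus control of the same line (x axis), in the Tfam, Cox10 and Rptor lines and bars of 1 standard error. Tfam points lie furthest to the right for most genes, the Cox10 points of Chac1, Slc7a3 and Trib3 are above 1, and the Rptor points of Mthfd2, Psat1 and Asns are the lowest.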

How the data were processed

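Whole lungs at 14.5 dpc were sequenced by the study (RNA extracted with TRIzol and an RNeasy kit, BGISEQ-500). The authors' notes name Trim Galore, HISAT2, featureCounts, DESeq2 and the build mm10, and strand, multimapping settings and versions are not given in the sources used here, so antisense partners cannot be told apart. The deposited signal is a read count per gene divided by the sample's size factor, set separately for each line, with totals of 27727202 to 28146575 in the Tfam line. The tables also hold the authors' own fold changes and p-values, which were not used.

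Genes that reached 10 in 3 or more of 6 samples were tested on log2(value + 1) with limma 3.58.1 (R 4.3.3, mean-variance trend), 3 against 3, two-sided, with Benjamini-Hochberg adjustment and a threshold of 0.05. Differences between lines used 1 fit of 18 samples and 6 groups. The fit was also run on simulated data, and the outcome is not given here. Controls were littermates per the methods, but which sample came from which litter is not given, so p-values measure the spread between these samples. Intervals are standard errors, and counting error adds most below 10 reads.

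Members and gene lists were chosen with earlier results of these data known. Named genes were 22 fixed genes, the 8 largest rises and the 8 largest falls past the threshold without overlap and with a mean of at least 50, and the largest called rise and fall of each of 38 lists. Other called members are given as examples of their list. Coordinates are from GENCODE on GRCm38, which is mm10. Some genes are not reported here.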

Additional observations from a re-analysis of the deposited data

Results flagged for a closer look

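The effect of Tfam deficiency differed from that in another line for the named genes given here, each by a test of the difference itself (limma, 18 samples, adjusted p below 0.05, where the background is 0.055% of genes against the Cox10 line and 11.2% against the Rptor line). All values are the log2 fold change in the Tfam line minus that in the other line. Against the Cox10 line, the effect was larger by 1.10 for Atf5, 0.97 for Asns, 0.91 for Mthfd2, 1.66 for Slc7a3 and 1.38 for Aldh1l2.

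Against the Rptor line, stress and amino acid genes had the higher effect in the Tfam line. The difference was 0.72 for Atf4, 1.38 for Atf5, 0.36 for Eif4ebp1 and 3.80 for Chac1. It was 2.32 for Asns, 0.97 for Phgdh, 2.00 for Mthfd2, 1.92 for Aldh1l2, 2.65 for Slc7a3 and 0.39 for Sars. Atf4 was not called in the Tfam line on its own, and its log2 fold change was -0.53 in the Rptor line.

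Mitochondrial, epithelial and other named genes had the higher effect in the Tfam line as well, by 0.42 for Lrpprc, 0.66 for Hspd1, 2.57 for Sox2, 0.72 for Epcam, 2.17 for Aldh1a7, 1.17 for Clu, 0.78 for Uchl1, 3.39 for Tinag and 2.68 for Npy2r. The effect was lower in the Tfam line for Fgf10 (-0.94), Lum (-1.28), Cfi (-1.43) and Ager (-1.09). In whole lung, a difference between lines in how much epithelium the lungs held cannot be told apart from a difference in expression per cell.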

How the results depend on the processing

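Of the 702 called genes, 0 changed sign in the alternatives that tested them, while Epcam, Polrmt and Lonp1, which were not called, did so without 1 sample (up to 0.06, 0.04 and 0.01). The 702 calls became 408 (164 higher, 244 lower) with all 18 samples in 1 fit, 315 (129 and 186) at an adjusted p of 0.01 and 122 (45 and 77) at an absolute log2 fold change of at least 1. Without 1 sample they ran from 354 to 1114, with 139 to 517 higher and 200 to 597 lower. Control 3 set the upper end and deficient 3 the lower end of the total, and the cause was not tested. The calls remained within 1.5 times with no filter (596), a mean of at least 50 (650), a pseudocount of 0.1 (701), library totals (703), trimmed means of M-values (706) and Xist as a covariate (853, of which 667 were among the 702).

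The deviations of samples with the same number from their group means had no common direction (correlations of -0.31, -0.21 and 0.15). This cannot decide whether the numbers pair the samples, since litters are not given and sexes differed among samples of each group. With the replicate number as a block there were 802 calls (340 higher, 462 lower), and 5 genes differed from the Cox10 line in place of 8. That number was 4 with only the 12 samples of these lines and 2 to 10 without 1 sample. The number that differed from the Rptor line was 844 to 2255 without 1 sample, in place of 1626, and lowest without control 2 of the Tfam line. Count tests with edgeR and DESeq2 were planned and not run, although the values are whole multiples of a step near 1, from which reads might be recovered.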

Other observations

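Among the 702 called genes, 594 belonged to no list. A few of these are given here, chosen after their values were seen. The sodium channel subunit Scnn1b measured 96.5, 91.0 and 90.0 in controls and 40.7, 39.7 and 45 in deficient lungs (log2 fold change -1.13, SE 0.15, limma adjusted p = 0.00165). Its partner Scnn1g fell by 0.78 on the log2 scale. The chloride channel Cftr fell from 472, 563 and 495 to 315, 322 and 282 (-0.73, SE 0.10), and the water channel Aqp4 from 397, 424 and 358 to 215, 223 and 215 (-0.85, SE 0.09). In each of them every deficient lung lay below every control. The mucin Muc1 fell from 2792, 2467 and 2147 to 933, 1059 and 1015 (-1.29, SE 0.09) and the cholecystokinin receptor Cckar from 2185, 2030 and 1860 to 708, 635 and 648 (-1.61, SE 0.08).

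Pthlh, the peptide by which the lung epithelium is known to act on the mesenchyme, rose from 145, 178 and 197 to 590, 525 and 526 (1.66, SE 0.12, limma adjusted p = 2.5e-05). The guidance protein Ntn1, netrin 1, fell from 1029, 985 and 988 to 448, 395 and 515 (-1.15, SE 0.09, limma adjusted p = 6.3e-05). Bcat1, the cytosolic transaminase of branched-chain amino acids, rose from 857, 843 and 825 to 1308, 1327 and 1187 (0.60, SE 0.07). Groups did not overlap in these genes.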
